A study of Mus musculus with 2 samples.

Results

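The GIMAP genes are a family of 8 genes in the thymocyte data, Gimap1, Gimap3, Gimap4, Gimap5, Gimap6, Gimap7, Gimap8 and Gimap9. They were taken by name from the 20282 genes of the count table, in which all 8 are present. Whole thymus from 6-week-old mice was profiled by droplet 3′ single-cell RNA sequencing as 2 libraries, each pooled from 5 mice. The library labelled WT came from Cdc42f/f mice and the library labelled KO from Cdc42f/fCD4Cre mice. Both groups therefore carry the floxed Cdc42 allele, and they differ by a Cre transgene under the CD4 promoter, which is active from the double-positive (DP) stage onward. The libraries were collected to ask how loss of Cdc42, a regulator of the actin cytoskeleton, alters gene expression in the thymus.

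GIMAPs (GTPases of immunity-associated proteins) are small GTP-binding proteins of vertebrates, best known for the survival of lymphocytes, and several are anchored to intracellular membranes such as the endoplasmic reticulum, the Golgi and lysosomes. Thymocytes mature from CD4-CD8- double-negative (DN) cells through DP cells, which rearrange Tcra with Rag1 and Rag2, into CD4 or CD8 single-positive (SP) cells that leave the thymus. Loss of Gimap5 in rodents leaves few long-lived peripheral T cells, and Gimap1 is needed to keep mature B and T cells, so the stage at which each member is switched on bears on when thymocytes acquire the proteins.

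With 1 library for each genotype there is no replicate error, so no test between genotypes was made and no p-value is given. Every interval is an exact 95% interval for counting error only, and PCR and capture error are not in it. Levels are UMIs of a gene per 1000000 UMIs of a cluster (CPM). A UMI marks 1 captured 3′ end, so levels were not divided by gene length. The files hold 6115 cells and 29706197 UMIs in the WT-labelled library and 7568 cells and 37920214 UMIs in the KO-labelled library, with medians of 3192 and 3401 UMIs per cell. The libraries share 17 cell barcodes. Cells were grouped by the deposited clusters and named by the marker gene that is highest in them: 5 Rag1 clusters (DP markers, 3636 and 4641 cells in the WT- and KO-labelled libraries), 2 Cd5 clusters (535 and 843 cells), the Itm2a cluster (early SP markers, 479 and 316 cells) and the Ms4a4b cluster (mature SP markers Klf2 and S1pr1, 332 and 396 cells), with 4 proliferating clusters before them. Cdc42 mRNA was 358 CPM in the WT-labelled and 320 CPM in the KO-labelled library in the Rag1 clusters, 455 and 383 CPM in the Cd5 clusters, 397 and 383 CPM in the Itm2a cluster, and 447 and 581 CPM in the Ms4a4b cluster. It was thus not lower throughout in the KO-labelled library, and 3′ tags can lie outside the deleted part of the gene, so the transcript does not check the labels. Fewer cells of one kind within a cluster and less RNA per cell cannot be told apart in a cluster sum.

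The 8 genes lie side by side on chromosome 6. In the GENCODE annotation of GRCm38 they span chr6:48647234-48770851, or 124 kb, in the order Gimap8, Gimap9, Gimap4, Gimap6, Gimap7, Gimap1, Gimap5 and Gimap3, with 6 genes on the plus strand and 2, Gimap6 and Gimap3, on the minus strand. The 250 bases before the RefSeq start (GRCm38.p6) of 5 members are shown because these members carry the main contrasts: Gimap1 and Gimap6 were already high in the Rag1 clusters, Gimap3 and Gimap4 were nearly absent there and high in the Ms4a4b cluster, and Gimap7 differed most between the libraries in the Ms4a4b cluster. Letters are in the direction of transcription, and capitals mark matches to 5 short motifs searched on both strands.
Gimap1, chr6:48738797-48739046, plus strand: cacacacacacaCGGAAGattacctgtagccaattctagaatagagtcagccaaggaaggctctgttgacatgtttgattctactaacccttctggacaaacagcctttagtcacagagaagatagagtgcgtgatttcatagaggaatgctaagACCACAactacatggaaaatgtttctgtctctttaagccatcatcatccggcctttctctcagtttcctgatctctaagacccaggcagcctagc
Gimap6, chr6:48708245-48708494, minus strand: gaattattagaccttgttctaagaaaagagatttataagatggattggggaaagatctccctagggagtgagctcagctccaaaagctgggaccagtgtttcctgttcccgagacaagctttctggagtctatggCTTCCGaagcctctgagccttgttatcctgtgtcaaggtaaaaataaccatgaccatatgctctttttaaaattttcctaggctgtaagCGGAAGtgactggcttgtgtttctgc
Gimap3, chr6:48770852-48771101, minus strand: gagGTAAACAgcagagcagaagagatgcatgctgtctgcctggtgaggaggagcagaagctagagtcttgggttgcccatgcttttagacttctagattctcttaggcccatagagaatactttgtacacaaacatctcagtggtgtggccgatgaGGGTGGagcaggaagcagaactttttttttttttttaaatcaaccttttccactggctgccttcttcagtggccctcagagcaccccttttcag
Gimap4, chr6:48684328-48684577, plus strand: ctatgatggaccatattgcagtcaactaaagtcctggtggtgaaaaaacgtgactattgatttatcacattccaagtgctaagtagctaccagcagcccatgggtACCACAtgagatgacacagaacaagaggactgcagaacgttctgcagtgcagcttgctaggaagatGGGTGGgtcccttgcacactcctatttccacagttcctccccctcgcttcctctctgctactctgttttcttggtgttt
Gimap7, chr6:48718371-48718620, plus strand: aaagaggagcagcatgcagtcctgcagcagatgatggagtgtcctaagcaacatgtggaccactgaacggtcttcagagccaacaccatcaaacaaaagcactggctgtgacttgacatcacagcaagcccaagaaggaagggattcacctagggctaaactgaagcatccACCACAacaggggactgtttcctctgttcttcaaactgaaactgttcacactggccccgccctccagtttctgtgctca
The motifs were an ETS core (CGGAAG), a RUNX site (TGTGGT), a KLF box (CCACCC), a TCF core (CTTTGA) and a FOXO site (GTAAACA). The ETS core stood before Gimap1, Gimap6 and Gimap8, 3 of 8 genes, and in 13.6% of all 32851 promoter windows of the same length. Gimap6 holds it in both orientations, 26 and 115 bases before the start. The KLF box stood before Gimap3, Gimap4, Gimap5, Gimap8 and Gimap9, against 28.1% of all windows. The RUNX site stood before Gimap1, Gimap4 and Gimap7, against 14.05% of windows. The FOXO site was in the Gimap3 window, 247 bases before the start, against 3.17% of windows, and the TCF core, in 13.8% of windows, was in none of the 9 GIMAP windows (Gimap8 has 2). Gimap3 and Gimap4, the late pair, shared the KLF box, which 3 other members also hold. A match describes the letters and does not show binding.

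Taken as a sum, GIMAP mRNA climbed from the proliferating clusters onward in both libraries. In the small cluster marked by Myl10, a DN-stage gene, it was 521 CPM in the WT-labelled and 560 CPM in the KO-labelled library, above the first proliferating clusters. The summed level was 255 CPM in the WT-labelled and 264 CPM in the KO-labelled library in the proliferating clusters with the lowest Cd4, and 1074 and 1150 CPM in the Rag1 clusters. It was 1645 and 1767 CPM in the Cd5 clusters, 1703 and 1862 CPM in the Itm2a cluster, and 2070 and 2316 CPM in the Ms4a4b cluster. The Ms4a4b cluster thus exceeded the Rag1 clusters by 0.95 on the log2 scale (0.90 to 1.00) in the WT-labelled library and by 1.01 (0.97 to 1.06) in the KO-labelled library, while the median of all genes was -0.40 and -0.19 in the same contrast. In the cluster marked by Apoe, a macrophage gene, 3 and 8 GIMAP UMIs were found in all.

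The sum hides genes with separate courses, which the plot of levels by cluster shows one by one. Clusters were built by the authors from the genes of these same cells, so the differences between stages are descriptions.

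**Figure D1:**
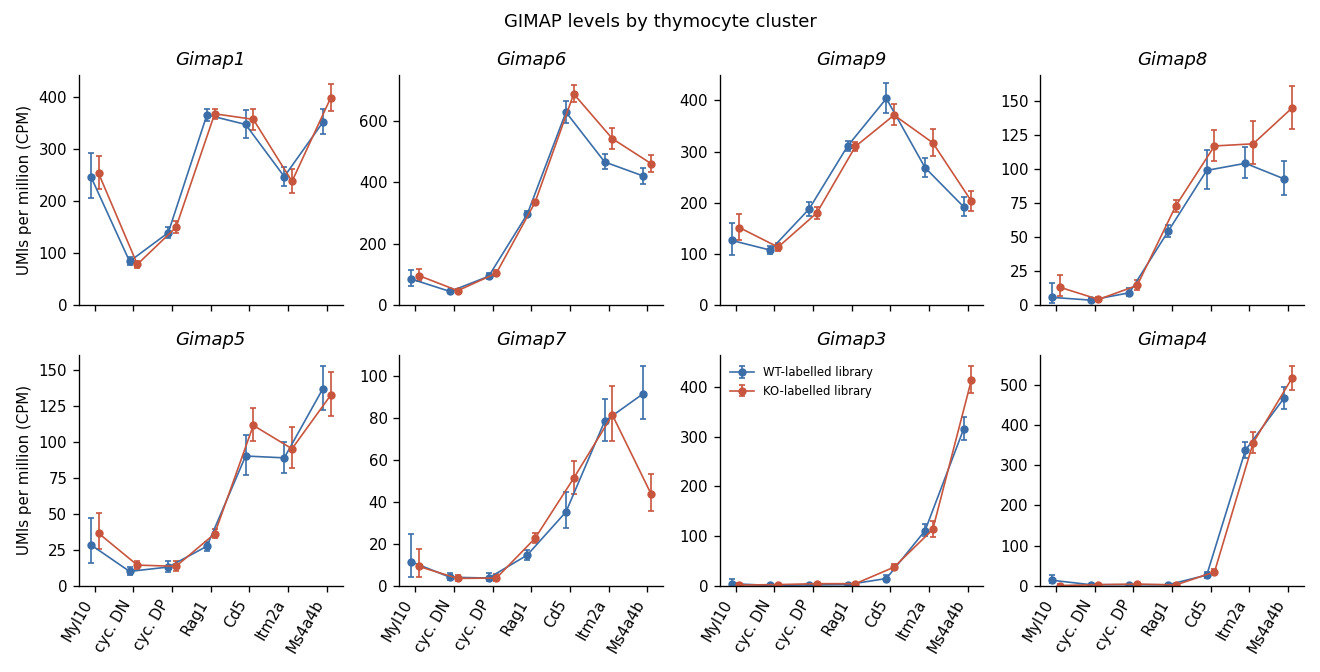
Level of each GIMAP gene (CPM, y axes from 0 and scaled for each gene) in 7 groups of deposited clusters named by a marker gene on the x axis, in the WT-labelled (blue) and KO-labelled (red) libraries, with exact 95% Poisson intervals for counting error. Gimap1, Gimap6 and Gimap9 are high from the Rag1 clusters on, Gimap3 and Gimap4 stay near 0 until the Itm2a cluster, and Gimap7 parts between the libraries in the Ms4a4b cluster, at 91.5 and 43.7 CPM.

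Gimap1, Gimap6 and Gimap9 made up most GIMAP mRNA of DP-stage cells. Gimap1, whose protein keeps mature lymphocytes alive, was 139 CPM in the WT-labelled and 150 CPM in the KO-labelled library in the proliferating clusters with higher Cd4, and 366 and 368 CPM in the Rag1 clusters. It was 348 and 358 CPM in the Cd5 clusters, dipped to 247 and 238 CPM in the Itm2a cluster and stood at 352 and 399 CPM in the Ms4a4b cluster. Its levels in the Rag1 clusters and the Ms4a4b cluster were within 0.12 on the log2 scale of each other in either library.

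Gimap6, which binds the autophagy protein Gabarapl2, peaked in the Cd5 clusters. It was 296 CPM in the WT-labelled and 334 CPM in the KO-labelled library in the Rag1 clusters and 628 and 688 CPM in the Cd5 clusters. In the Itm2a cluster it was 466 and 542 CPM, and in the Ms4a4b cluster 420 and 461 CPM. The step from the Rag1 to the Cd5 clusters was 1.08 on the log2 scale (0.99 to 1.18) in the WT-labelled and 1.04 (0.97 to 1.11) in the KO-labelled library, the same within counting error.

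Gimap9 was lower in the Ms4a4b cluster than in the Rag1 clusters. It was 188 and 180 CPM in the WT- and KO-labelled proliferating clusters with higher Cd4, close to where it ended, 311 and 310 CPM in the WT- and KO-labelled Rag1 clusters, 404 and 371 CPM in the Cd5 clusters, 269 and 317 CPM in the Itm2a cluster, and 192 and 203 CPM in the Ms4a4b cluster. From the Rag1 clusters to the Ms4a4b cluster it fell by 0.69 on the log2 scale in the WT-labelled library (-0.84 to -0.55) and by 0.61 in the KO-labelled library (-0.75 to -0.47). Relative to the median of all genes in the same contrast it was at -0.29 and -0.42.

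Gimap3 and Gimap4 behaved as an SP-stage pair. Gimap4, a member tied to T-cell death and known to act with Bax, had 21 UMIs in 3636 WT-labelled and 24 UMIs in 4641 KO-labelled cells of the Rag1 clusters, or 1.93 and 1.56 CPM. It was 26.2 and 33.9 CPM in the Cd5 clusters, 338 and 357 CPM in the Itm2a cluster, and 469 and 517 CPM in the Ms4a4b cluster. The Ms4a4b cluster exceeded the Rag1 clusters by 7.89 on the log2 scale (7.30 to 8.62) in the WT-labelled and by 8.34 (7.79 to 9.02) in the KO-labelled library. Gimap4 was found in 82.5% of WT-labelled and 84.8% of KO-labelled cells of the Ms4a4b cluster, whose median depths were 6738 and 5032 UMIs, against 0.550% and 0.474% of cells of the Rag1 clusters, at medians of 2823 and 3097 UMIs. With every cell thinned to 1000 UMIs these shares were 42.3% and 37.9% against 0.2501% and 0.130%, so the contrast between clusters holds at equal depth.

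Gimap3, the closest relative of Gimap5, followed behind Gimap4. It was 1.93 and 3.77 CPM in the WT- and KO-labelled Rag1 clusters, 14.1 and 37.1 CPM in the Cd5 clusters, 111 and 113 CPM in the Itm2a cluster and 316 and 415 CPM in the Ms4a4b cluster. From the Itm2a to the Ms4a4b cluster Gimap3 gained 1.51 on the log2 scale (1.33 to 1.70) in the WT-labelled library, where Gimap4 gained 0.47 (0.35 to 0.59). In the KO-labelled library the gains were 1.87 (1.66 to 2.10) and 0.54 (0.40 to 0.68). The larger part of the Gimap4 increase thus lay before the Itm2a cluster, and Gimap3 kept climbing after it.

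Gimap5, Gimap7 and Gimap8 were lower in abundance and climbed earlier than the late pair. Gimap5, the member required for long-lived peripheral T cells, was 27.3 and 36.0 CPM in the WT- and KO-labelled Rag1 clusters, 90.1 and 111 CPM in the Cd5 clusters, 88.8 and 95.1 CPM in the Itm2a cluster, and 137 and 132 CPM in the Ms4a4b cluster. Gimap8, a large member with repeated GTPase domains, was 54.1 and 73.0 CPM in the Rag1 clusters, 99.0 and 117 CPM in the Cd5 clusters, 104 and 119 CPM in the Itm2a cluster, and 92.8 and 145 CPM in the Ms4a4b cluster. Gimap7, whose protein can pair with another GIMAP and speed its GTP hydrolysis, was 14.5 and 22.5 CPM in the Rag1 clusters, 35.1 and 51.2 CPM in the Cd5 clusters, 78.3 and 81.3 CPM in the Itm2a cluster, and 91.5 and 43.7 CPM in the Ms4a4b cluster. Gimap5 took its largest step between the Rag1 and Cd5 clusters, and Gimap8 an earlier one, from 9.06 and 14.4 CPM in the proliferating clusters with higher Cd4 to the Rag1 clusters. Gimap7 also took its largest step to the Rag1 clusters, from 3.58 and 3.55 CPM in the same proliferating clusters (15 and 17 UMIs). In the WT-labelled library further steps of 1.28 (0.84 to 1.69) and 1.15 (0.76 to 1.57) on the log2 scale followed, to the Cd5 clusters and then to the Itm2a cluster.

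Counted by a threshold of 2 on the log2 scale among genes with at least 20 UMIs, 4 of 8 members (Gimap3, Gimap4, Gimap5 and Gimap7) were higher in the Ms4a4b cluster than in the Rag1 clusters of the WT-labelled library, against 4.77% of 11728 genes. In the KO-labelled library 2 of 8 (Gimap3 and Gimap4) passed, against 4.55% of 12438 genes. Gimap5, at 2.33 and 1.88, and Gimap7, at 2.65 and 0.96, lay on different sides of the threshold. At the earlier step, from the proliferating clusters with higher Cd4 to the Rag1 clusters, Gimap8 passed in the WT-labelled library, at 2.56, against 4.42% of 11854 genes. Gimap8 and Gimap7 passed in the KO-labelled library, at 2.33 and 2.62, against 4.53% of 12623 genes, and Gimap7 was at 1.98 in the WT-labelled library.

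The make-up of GIMAP mRNA therefore shifted with maturation. In the Rag1 clusters Gimap1 held 34.1% of WT-labelled and 32.03% of KO-labelled GIMAP UMIs, Gimap6 27.6% and 29.1%, and Gimap9 29.0% and 27.0%. Gimap3 and Gimap4 held 0.180% each in the WT-labelled library and 0.328% and 0.136% in the KO-labelled library. In the Ms4a4b cluster Gimap4 was the leading member at 22.6% and 22.3%, and Gimap3 held 15.3% and 17.9%. Gimap7 held 4.42% (3.85 to 5.04) of WT-labelled and 1.89% (1.54 to 2.29) of KO-labelled GIMAP UMIs there, and these intervals do not overlap. Shares within the family do not depend on the total that CPM divides by.

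**Figure D2:**
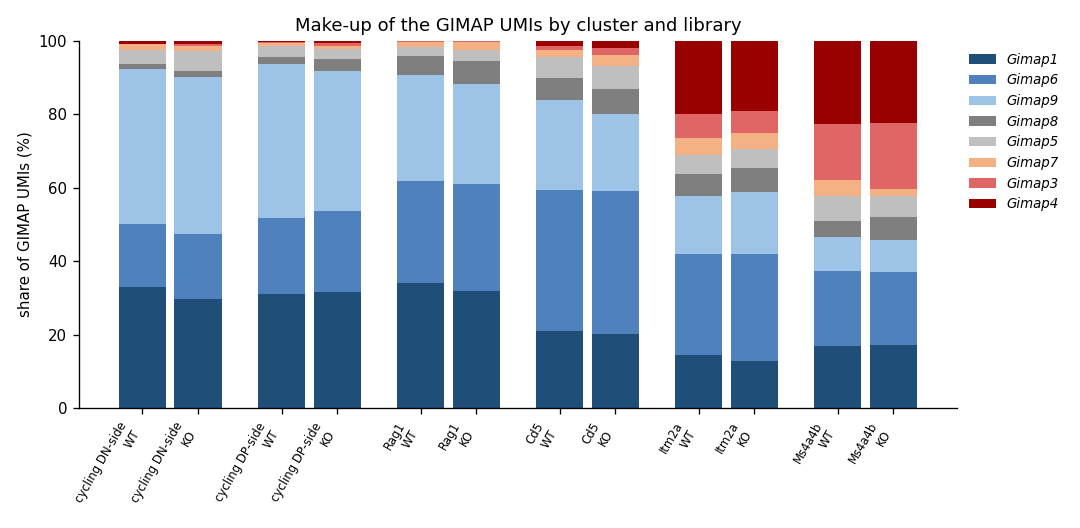
Share of all GIMAP UMIs (y axis, percent) held by each member in 6 groups of clusters, with the WT- and KO-labelled libraries side by side. Gimap1, Gimap6 and Gimap9 (blue) fill most of the bars up to the Cd5 clusters, and Gimap3 and Gimap4 (red) take 37.9% and 40.3% in the Ms4a4b cluster.

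Across the 18 deposited clusters with at least 20 cells in each library, Gimap3 and Gimap4 had the most similar course of any pair in the KO-labelled library, with a Pearson correlation of log2(CPM + 1) of 0.97, and 0.86 in the WT-labelled library. Gimap1 and Gimap9 were correlated at 0.97 and 0.73, Gimap7 and Gimap8 at 0.90 and 0.96, and Gimap4 and Gimap9 at -0.14 and 0.29. The clusters of a library share its depth and free RNA and are not independent, so these values are descriptions. Small clusters also enter them with few UMIs: in the Apoe cluster 3 UMIs equal 71.0 CPM in the WT-labelled and 42.1 CPM in the KO-labelled library. How far such clusters set the correlations, or their differences between the libraries, was not tested. Among genes outside the family with at least 200 UMIs, the 8 whose course was most like the GIMAP sum, by the lower of the correlations in the WT- and KO-labelled libraries, were Trib2, Txk, Cytip, Grap, Gm36932, Prf1, S100a10 and Il6st, at 0.87 to 0.89. Txk, a T-cell Tec-family kinase, was 264 CPM in the WT-labelled Rag1 clusters and 18.6 CPM in the proliferating clusters with the lowest Cd4.

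Position on the chromosome did not sort the courses. Gimap4 lies between Gimap9 and Gimap6, and Gimap3 lies at the far end beyond Gimap5, so the late pair is not adjacent. Gimap1 and Gimap5 are neighbours with log2 ratios of -0.06 and 2.33 for the Ms4a4b over the Rag1 clusters in the WT-labelled library. Of the 5 annotated protein-coding genes on each side, 3 before Gimap8 and 2 beyond Gimap3 were in the count table. Those before Gimap8 were low throughout: Zfp775 was 11.2 CPM in the WT-labelled Rag1 clusters and 8.59 CPM in the Ms4a4b cluster, and Repin1 was 1.66 and 1.29 CPM. Tmem176b and Tmem176a, beyond Gimap3, were 19.1 and 15.5 CPM in the WT-labelled Rag1 clusters and 27.1 and 27.9 CPM in the Ms4a4b cluster, so their log2 ratios, 0.51 (0.07 to 0.91) and 0.86 (0.42 to 1.27), were far from those of Gimap3.

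**Figure D3:**
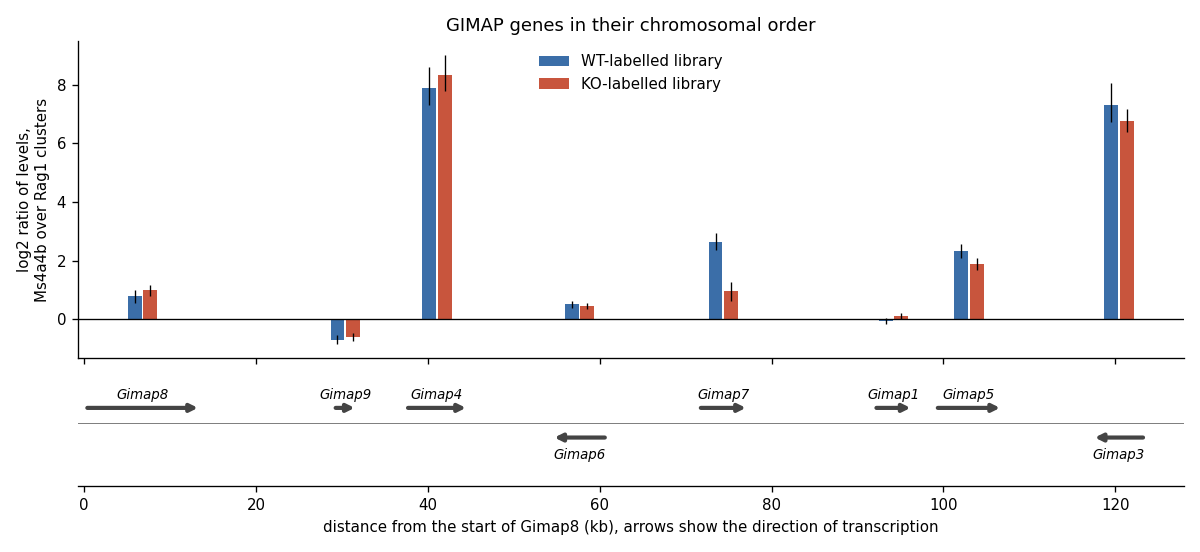
GIMAP genes in chromosomal order, with distance from the start of Gimap8 in kb on the x axis and arrows for the direction of transcription, under the log2 ratio of the level in the Ms4a4b cluster over the Rag1 clusters (y axis, bars from 0) in the WT-labelled (blue) and KO-labelled (red) libraries. Lines are exact 95% intervals for counting error, and the tallest bars, Gimap4 and Gimap3, are not neighbours.

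Some annotated transcripts overlap the members. Gm28053, a readthrough model on the plus strand, overlaps Gimap7, Gimap1 and Gimap5 and was 0.276 CPM in the WT-labelled Rag1 clusters and 1.29 CPM in the Ms4a4b cluster. In the last 500 bases of the coding transcripts, where 3′ reads fall, 0% of 50-base words of Gimap4, Gimap5, Gimap6, Gimap7, Gimap8 and Gimap9 occurred in a transcript of another gene, against 5.30% for Gimap1 and 3.53% for Gimap3. Gimap1os, on the opposite strand over Gimap1, had its own course: 47.3 and 58.8 CPM in the WT- and KO-labelled Rag1 clusters, 91.1 and 106 CPM in the Cd5 clusters, and 55.4 and 63.5 CPM in the Ms4a4b cluster.

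CD4 and CD8 lineage cells of the SP clusters used the family somewhat differently. Cells with a Cd4 UMI and none of Cd8a or Cd8b1, and the reverse, were compared inside the Ms4a4b cluster, where they numbered 76 and 106 in the WT-labelled and 90 and 97 in the KO-labelled library. Zbtb7b, the CD4-lineage factor, was 38.1 against 12.2 CPM and Runx3, the CD8-lineage factor, 46.2 against 208 CPM in the WT-labelled library, so the division follows lineage. Gimap4 was 612 CPM in Cd4-only and 391 CPM in Cd8-only WT-labelled cells, a log2 ratio of 0.65 (0.42 to 0.88), and 590 and 490 CPM in KO-labelled cells, a log2 ratio of 0.27 (0.01 to 0.52). Gimap3 was 428 and 276 CPM in WT-labelled cells, a log2 ratio of 0.63 (0.35 to 0.91), and 523 and 405 CPM in KO-labelled cells, a log2 ratio of 0.37 (0.10 to 0.64). Both late members were thus higher on the CD4 side of the Ms4a4b cluster in both libraries. The family sum was itself higher on that side, by 0.34 (0.23 to 0.45) in the WT-labelled and 0.19 (0.07 to 0.30) in the KO-labelled library. Among Itm2a-cluster cells Gimap4 was higher on the CD4 side as well, at 0.35 (0.12 to 0.59) in the WT-labelled and 0.88 (0.52 to 1.26) in the KO-labelled library. Gimap3 did not show this there, at -0.05 (-0.47 to 0.37) and 0.16 (-0.46 to 0.82).

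Gimap5 ran the other way. It was 106 CPM in Cd4-only and 165 CPM in Cd8-only WT-labelled cells of the Ms4a4b cluster, a log2 ratio of -0.63 (-1.12 to -0.16), and 114 and 165 CPM in KO-labelled cells, a log2 ratio of -0.52 (-1.06 to -0.01). Its log2 ratio in the Itm2a cluster was -0.78 (-1.28 to -0.32) in the WT-labelled and -0.34 (-1.06 to 0.38) in the KO-labelled library. Gimap7 was also lower in Cd4-only cells of the WT-labelled Itm2a cluster, at 63.9 against 112 CPM, and the KO-labelled cells gave 54.99 against 64.8 CPM on 27 and 23 UMIs. Gimap6 changed side between the clusters. Its CD4-to-CD8 log2 ratio was -0.16 (-0.37 to 0.05) in the WT-labelled and -0.44 (-0.73 to -0.15) in the KO-labelled library in the Itm2a cluster, and 0.34 (0.09 to 0.58) and 0.32 (0.05 to 0.58) in the Ms4a4b cluster. For Gimap1 and Gimap9 all 4 intervals of the CD4-to-CD8 ratio, over both clusters and libraries, included 0. In the Ms4a4b cluster Gimap7 was at -0.17 (-0.72 to 0.36) in the WT-labelled and -0.21 (-1.18 to 0.70) in the KO-labelled library. For Gimap8 only the interval of the WT-labelled Itm2a cluster lay above 0, at 0.43 (0.01 to 0.87), and the others included 0.

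Between the libraries the family sum differed little. As CPM it was higher in the KO-labelled library by 0.10 on the log2 scale in the Rag1 (0.06 to 0.13) and the Cd5 clusters (0.04 to 0.17), by 0.13 (0.07 to 0.19) in the Itm2a cluster and by 0.16 (0.11 to 0.22) in the Ms4a4b cluster, but with edgeR TMM factors it was -0.02 for Itm2a and -0.09 for Ms4a4b. The median of all genes was itself above 0, at 0.05, 0.04, 0.16 and 0.24 in the same order. Ribosomal protein genes held 30.8% of WT-labelled and 21.9% of KO-labelled UMIs of the Ms4a4b cluster. Totals without ribosomal protein and mitochondrial genes, left out together, put the sum at -0.01 there. The part of ribosomal protein genes alone was not tested. After subtracting the median of all genes the sum stood at -0.03 for the Itm2a and -0.08 for the Ms4a4b cluster.

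Single members departed from this, and a log2 ratio of at least 0.5 in size among genes with at least 20 UMIs was used to name them. In the Rag1 clusters 2 of 8 members were higher in the KO-labelled library, Gimap3 and Gimap7, against 7.44% of 12983 genes, and 0 of 8 were lower, against 3.08%. In the Cd5 clusters the same members, Gimap3 and Gimap7, were higher, against 9.38% of 9854 genes, and 0 were lower, against 4.88%. In the Itm2a cluster 0 of 8 were higher, against 15.8% of 9790 genes, and 0 were lower, against 6.68%, although Gimap3 passed upward with finer clusters and downward in thinned cells. In the Ms4a4b cluster 1 of 8, Gimap8, was higher, against 27% of 9586 genes, and 1 of 8, Gimap7, was lower, against 7.03%. Each of these counts rests on 1 or 2 genes. The median log2 ratio over the 8 members was 0.28, 0.27, 0.09 and 0.14 from the Rag1 to the Ms4a4b cluster.

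**Figure D4:**
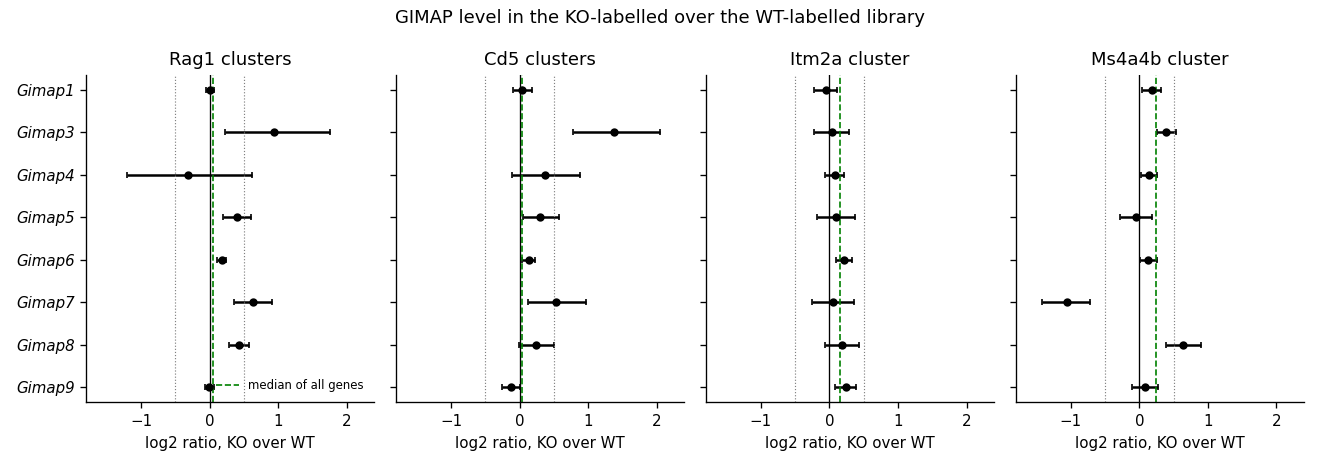
KO over WT log2 ratio of each GIMAP gene (x axis, points with exact 95% intervals for counting error) in 4 groups of clusters. The dashed green line is the median of all genes with at least 20 UMIs and the dotted lines are the thresholds of 0.5. Gimap7 is to the right of 0 in the Rag1 and Cd5 clusters (0.63 and 0.54) and far to the left in the Ms4a4b cluster (-1.06).

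Gimap7 was the member whose libraries parted most among mature SP cells. It had 213 UMIs in 332 WT-labelled and 99 UMIs in 396 KO-labelled cells of the Ms4a4b cluster, 91.5 CPM (79.6 to 105) against 43.7 CPM (35.5 to 53.2). The log2 ratio was -1.06 (-1.43 to -0.72), or -1.30 after subtracting the median of all genes. It was found in 39.2% of WT-labelled and 18.4% of KO-labelled cells, and after thinning to 1000 UMIs in 11.5% (8.25 to 15.4) and 4.80% (2.91 to 7.39), against 1.53% and 2.03% of thinned cells of the Rag1 clusters. Fewer UMIs and fewer positive cells therefore both marked the KO-labelled library.

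The lower Gimap7 level was seen on both sides of the lineage choice. In Cd4-only cells it was 94.4 against 41.1 CPM, a log2 ratio of -1.17 (-2.07 to -0.39), and in Cd8-only cells 106 against 48.1 CPM, a log2 ratio of -1.13 (-1.84 to -0.50). Cells with UMIs of both coreceptors gave 98.8 and 51.6 CPM. Cells with neither gave 55.5 (36.6 to 80.8) and 29.2 CPM (16.4 to 48.2), on 27 and 15 UMIs. All 4 groups of cells were thus lower in the KO-labelled library, although the intervals of the cells with neither overlap. In the Itm2a cluster, by contrast, Gimap7 was level between the libraries, at 0.06 (-0.25 to 0.35), with -0.77 (-1.51 to -0.13) in its Cd8-only cells.

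Gimap7 was higher in the KO-labelled library in the Rag1 and Cd5 clusters, and its counts before them were too few to tell. In the proliferating clusters with the lowest and with higher Cd4 its log2 ratios were -0.23 (-1.08 to 0.64) and -0.01 (-1.10 to 1.10), on 15 to 27 UMIs. Both intervals include 0 and also the values of the Rag1 and Cd5 clusters. In the Rag1 clusters it had 158 and 346 UMIs, 14.5 and 22.5 CPM, a log2 ratio of 0.63 (0.36 to 0.91), and the ratio was above 0 in 5 of 5 of these clusters, from 0.13 to 1.16. In the Cd5 clusters it was 0.54 (0.13 to 0.97), with 0.50 and 0.55 in the 2 clusters. Gimap5, Gimap6 and Gimap8 were also above 0 in 5 of 5 Rag1 clusters, and over these clusters their ratios were 0.40 (0.19 to 0.61), 0.17 (0.11 to 0.24) and 0.43 (0.29 to 0.58). Gimap1 and Gimap9, the abundant early members, stood at 0.01 (-0.05 to 0.07) and -0.00 (-0.07 to 0.06).

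Gimap3 was also higher in the KO-labelled library in the Cd5 and Rag1 clusters. It had 27 UMIs in 535 WT-labelled and 127 UMIs in 843 KO-labelled cells of the Cd5 clusters, 14.1 and 37.1 CPM, a log2 ratio of 1.37 (0.78 to 2.05), with 1.22 and 1.79 in the 2 clusters. In the Rag1 clusters 21 and 58 UMIs gave 0.94 (0.22 to 1.76), at levels of 1.93 and 3.77 CPM. On these few UMIs the Gimap3 ratio was above 0 in 4 of the 5 Rag1 clusters, from -1.06 to 4.65. Gimap4, its partner in time, had 0.36 (-0.12 to 0.88) in the Cd5 clusters and -0.31 (-1.21 to 0.61) in the Rag1 clusters. For the Itm2a cluster Gimap3 was at 0.03 (-0.22 to 0.28), a value that depends on the processing: it was 0.98 (0.49 to 1.501) with clusters at resolution 1.8 or 2 and -0.57 (-1.26 to 0.07) in thinned cells. In the Ms4a4b cluster it was 0.39 (0.25 to 0.53), or 0.15 above the median of all genes.

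Gimap8 was the member that passed 0.5 upward in the KO-labelled Ms4a4b cluster. The WT-labelled cells held 216 UMIs (92.8 CPM) and the KO-labelled cells 328 UMIs (145 CPM). The log2 ratio was 0.64 (0.39 to 0.90), or 0.40 after subtracting the median of all genes. The ratio was 0.71 (0.18 to 1.24) in Cd8-only and 0.13 (-0.47 to 0.72) in Cd4-only cells. It was 0.01 with cells thinned to 1000 UMIs and 0.39 with TMM factors, so it did not pass 0.5 under either. The other 6 members lay between -0.05 (Gimap5) and 0.39 (Gimap3) in the Ms4a4b cluster, without Gimap7, and none of these values passed the threshold. Gimap5 passed it downward in thinned cells, at -0.57, and Gimap3 upward in Cd8-only cells, at 0.55.

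To compare cells within the SP clusters along maturation, each cell was given a score, the log2 ratio of late (Klf2, S1pr1, Il7r, Cd52, Ms4a6b) to early (Itm2a, Cd24a, Ccr9, Tox, Sox4) UMIs, and the cells of both libraries were divided into 5 bins of equal size. The genes of the score differ between the libraries themselves, with Klf2 at 679 and 1626 CPM and S1pr1 at 261 and 643 CPM in the Ms4a4b cluster, so equal bins are not known to be equal stages. Gimap4 was 139 CPM in the least mature bin and 502 CPM in the fourth bin of the WT-labelled library, and 208 and 562 CPM in the same bins of the KO-labelled library. Gimap3 was 42.6 and 284 CPM, and 71.8 and 469 CPM, in those bins.

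Gimap7 reached its level early and then fell. In the WT-labelled library it was 49.8 CPM in the first bin, 107, 93.0 and 94.8 CPM in the middle bins and 63.8 CPM in the last. The KO-labelled library gave 78.4, 66.6, 56.3, 76.8 and 31.3 CPM. From the first to the last bin the KO over WT log2 ratios were 0.65 (0.09 to 1.24), -0.68 (-1.18 to -0.21), -0.71 (-1.28 to -0.20), -0.30 (-0.80 to 0.18) and -1.01 (-1.70 to -0.38), so the first bin and the later bins lay on opposite sides of 0. Gimap8 gave 0.71, 0.79 and 0.61 and Gimap3 0.48, 0.72 and 0.77 in bins 3 to 5, all with intervals above 0. The family sum was also above 0 in these bins, at 0.26, 0.30 and 0.39, and no median of all genes was taken for the bins. In bin 2 Gimap8 and Gimap3 were at -0.28 (-0.70 to 0.14) and -0.12 (-0.47 to 0.23).

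**Figure D5:**
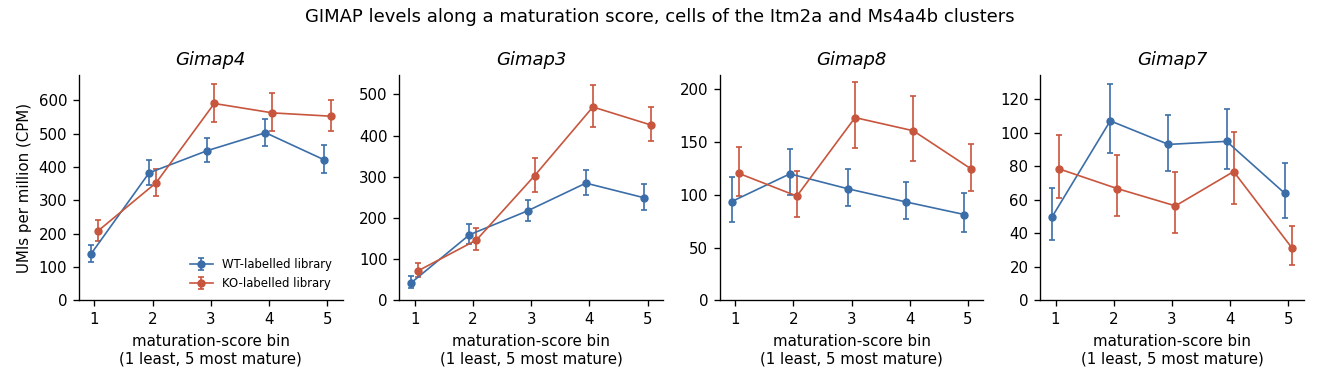
Level (CPM, y axes from 0) of Gimap4, Gimap3, Gimap8 and Gimap7 in 5 bins of a maturation score over cells of the Itm2a and Ms4a4b clusters (x axis, 1 least to 5 most mature), in the WT-labelled (blue) and KO-labelled (red) libraries with exact 95% Poisson intervals. Gimap3 is higher and Gimap7 lower in the KO-labelled library in the last bin, at 426 against 248.9 CPM and 31.3 against 63.8 CPM.

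Markers of other cells differed between the libraries in the Ms4a4b cluster, in summed level, in share of positive cells or in both. The 4 regulatory T-cell markers summed to 325 CPM in the WT-labelled and 137 CPM in the KO-labelled library, with a UMI of any of them in 47.3% and 20.7% of cells. The 6 γδ T-cell markers summed to 208 and 402 CPM, with none at 0 in either library, but the share of cells with a UMI was level, at 14.5% and 14.1%. The 8 innate-like T and NK markers summed to 242 and 266 CPM, with a UMI in 35.5% and 13.6% of cells. Macrophage markers summed to 6.01 and 36.6 CPM, and the DP marker Rag1 was 88.9 and 184 CPM. Without the cells that had a regulatory T-cell marker UMI Gimap7 gave -0.90 (-1.36 to -0.46), without those with a γδ marker -1.001 (-1.39 to -0.63), and without those with an innate-like marker -1.20 (-1.61 to -0.81). The Gimap7 difference was thus present when cells with a detected marker UMI of any 1 list were left out. Cells of these kinds without a detected marker UMI stayed in, and the lists were not left out together. The part of such cells in the ratios of the Rag1 and Cd5 clusters was not tested.

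The proteins that GIMAPs are known to act with did not share their courses as a group. Of 7 such genes (Bcl2, Bcl2l1, Bax, Bak1, Gabarapl2, Gsk3a and Gsk3b), 1 was higher and 1 lower by at least 2 on the log2 scale in the Ms4a4b cluster over the Rag1 clusters of the WT-labelled library, with a median of -0.74 against -0.40 over all genes. Bcl2, the survival factor of SP cells, was 12.05 CPM in the WT-labelled and 15.7 CPM in the KO-labelled Rag1 clusters, 435 and 435 CPM in the Itm2a cluster, and 286 and 236 CPM in the Ms4a4b cluster. Bcl2l1, the survival factor of DP cells, was 170 and 169 CPM in the Rag1 clusters and 17.6 and 19.4 CPM in the Ms4a4b cluster. Gabarapl2, which Gimap6 binds, was 260 and 247 CPM in the Rag1 clusters and 188 and 186 CPM in the Ms4a4b cluster. Between the libraries 1 of the 7, Bak1, passed 0.5 in the Ms4a4b cluster, at 0.54 (0.04 to 1.06), where 27% of all genes passed upward. In the Cd5 clusters Bcl2 passed downward, by -0.60 (-0.77 to -0.43) from 264 to 175 CPM, where 4.88% of all genes did. None of the 7 passed in the Itm2a cluster, beside 15.8% of all genes upward and 6.68% downward, where the median was 0.10 against 0.16 over all genes.

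The list of SP maturation and egress genes holds Ms4a4b, Klf2 and S1pr1, which name or mark the Ms4a4b cluster, so its course over clusters is a description fixed in part by the choice of genes. Of its 9 genes, 8 were higher in the Ms4a4b than in the Rag1 clusters by at least 2 on the log2 scale in either library, beside 4.77% and 4.55% of all genes, with medians of 5.79 and 5.15. Between the libraries 3 of 9 passed 0.5 upward in the Ms4a4b cluster, Klf2 (1.26), S1pr1 (1.30) and Itgb7 (0.84), beside 27% of all genes, and none downward, with a median of 0.24 against 0.24 over all genes. In the Itm2a cluster 2 were higher, Klf2 (0.70) and Itgb7 (0.52), beside 15.8% of all genes, and 4 were lower, S1pr1 (-0.75), Ccr7 (-0.55), Ms4a4b (-1.24) and Ms4a6b (-1.11), beside 6.68%.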

How the data were processed

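Whole thymus of 5 pooled mice per genotype was dissociated and profiled with the 10x Genomics Chromium 3′ kit, 1 library per genotype. Per the submitters' processing notes the reads were handled with Cell Ranger 3.0.2 and STAR on mm10 and the cells with Seurat. The gene annotation is not given in the sources used here. The authors deposited 1 table of raw UMI counts per gene and cell, already filtered on genes and reads per cell, and a metadata table with cluster numbers at resolutions 1.5, 1.8 and 2. All 13683 cells of the table hold 200 to 6000 genes and at most 50000 UMIs. This is fewer cells than the study gives. Names in the table assign cells to WT or KO. Clusters at resolution 1.5 were used and are not paired with the study's named cell types.

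Counts were summed per cluster and library and divided by the summed UMIs of the cluster, times 1000000. Log2 ratios were taken after adding 0.5 to both sums, with exact conditional binomial 95% intervals. Levels have exact Poisson and shares exact Clopper-Pearson intervals. With 1 library per genotype no test was run. Calls need 20 UMIs in the groups compared and a log2 ratio of 0.5 between libraries or 2 between stages. The rule for named genes took all 8 members, Gimap1os, the 5 annotated protein-coding genes on each side of the locus, the 8 genes most like the GIMAP sum, and lists of GIMAP partners and of maturation genes. The members and lists were chosen with earlier results of these data known. A gene first placed in the maturation list and the maturation score is not reported here, and both were computed without it. Doublets were kept in the main values and left out as an alternative, as the 6% of cells of each library with the highest Scrublet scores (scanpy 1.11.5). Those made up 5.12% of WT-labelled and 11.6% of KO-labelled cells of the Ms4a4b cluster. Thinning to 1000 UMIs left out 236 and 220 shallower cells. Positions are from GENCODE (GRCm38), in which 19797 of 20282 gene names were found, and promoter sequences from RefSeq (GRCm38.p6). The ratio, interval and call steps were run on simulated Poisson counts, the model that the intervals assume. That checks the computation only, because variation between cells or mice was not simulated. Python 3.11.15 and R 4.3.3 were used, with edgeR 4.0.16 and DESeq2 1.42.0 for scaling factors alone.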

Additional observations from a re-analysis of the deposited data

Results flagged for a closer look

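Gimap7 differed in direction between clusters under the same contrast of the KO-labelled with the WT-labelled library. Its log2 ratio was 0.63 (0.36 to 0.91) in the Rag1 clusters and 0.54 (0.13 to 0.97) in the Cd5 clusters, and -1.06 (-1.43 to -0.72) in the Ms4a4b cluster, with each interval on 1 side of 0. The intervals cover counting error only, and with 1 library for each genotype the difference between the clusters was not tested. Of these ratios, only that of the Ms4a4b cluster was recomputed under alternative processing. None of the other 7 members had intervals on both sides of 0 in these clusters.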

How the results depend on the processing

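Of 310 values recomputed under an alternative, 233 stayed within the counting interval of the reported value and 77 moved outside it. The alternatives are not independent, so these counts do not measure robustness. Clusters at resolutions 1.8 and 2 gave the same library ratios, and a pseudocount of 1 hardly changes large sums. The values cover library ratios of the family sum and of each member in the Itm2a and Ms4a4b clusters. They also cover the step of the sum from the Rag1 to the Ms4a4b cluster. Among these results, none reported past 0.5 in size turned its sign. Library ratios of the Rag1 and Cd5 clusters, including those of Gimap3 and Gimap7, were not recomputed. Of smaller reported values in the Itm2a cluster, Gimap3 and Gimap7 turned to -0.57 in thinned cells and to -0.77 in Cd8-only cells. Gimap7 in the Ms4a4b cluster lay between -1.31 and -0.90 under all 16 alternatives. Gimap8 there passed 0.5 under 11 of 16, with a lowest value of 0.01 in cells thinned to 1000 UMIs. Of the members reported below 0.5 in size there, Gimap5 reached -0.57 in thinned cells and Gimap3 0.55 in Cd8-only cells.

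The KO over WT ratio of the family sum moved most with the scaling. In the Itm2a cluster it was 0.015 with totals without ribosomal protein and mitochondrial genes, -0.023 with TMM factors, -0.022 with DESeq2 size factors, 0.052 as a mean over cells of counts per 10000, 0.021 with thinned cells, 0.040 in Cd8-only cells and 0.012 without cells with a Treg marker UMI. In the Ms4a4b cluster it was, for the first 3 of these, -0.011, -0.087 and -0.078, with 0.031 in thinned cells, 0.080 in Cd4-only and 0.24 in Cd8-only cells, 0.23 without cells with a γδ marker UMI and 0.26 without cells with a Treg marker UMI. The sign of the family sum between libraries therefore depends on the scaling, and no value reached 0.5.

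The step of the family sum from the Rag1 to the Ms4a4b cluster stayed above 0.94 under every alternative run. In the WT-labelled library it was 1.23 with totals without ribosomal protein and mitochondrial genes, 1.35 with TMM, 1.37 with DESeq2 factors, 1.06 as a mean over cells, 1.09 in thinned cells and 1.00 without the top 5% of cells by UMIs. In the KO-labelled library the same settings except thinning gave 1.13, 1.20, 1.22, 1.13 and 1.08. In the single members of the Itm2a cluster Gimap3 depended on the clustering, at 0.98 with clusters at resolution 1.8 or 2, where the cluster with the highest Itm2a held 173 and 186 cells, and at -0.57 with thinned cells, against the reported 0.03.

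The alternatives without cells that carry markers of other cells were added after seeing the data. Leaving out a replicate was not possible with 1 library for each genotype, so the spread between mice is unknown, and genotype, library and pool cannot be told apart. No paired analysis was possible because the groups share only 1 replicate number. The depth limits the rare members: 3 UMIs in the Ms4a4b cluster equal 1.29 CPM in the WT-labelled and 1.32 CPM in the KO-labelled library.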
